A study of Mus musculus with 16 samples.

Results

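The microRNAs described here are mmu-miR-132-3p, mmu-miR-132-5p, mmu-miR-212-3p and mmu-miR-212-5p, which are both mature arms of the neighbouring mouse hairpins miR-132 and miR-212. They were chosen by name, and they are 4 of the 1978 mouse miRNA names in the count table. All 4 passed the filter on low counts and belong to the 483 miRNAs that were tested. Small RNA was sequenced from mouse forebrain neurons taken around birth, grown in primary culture and transduced with lentivirus, in 4 libraries for each of 4 groups. The Empty_Vector cultures received a virus without a hairpin. The shRNA cultures received a virus encoding a short hairpin RNA, a designed transcript that Dicer cuts to a small interfering RNA. The shRNA_2bp and shRNA_5bp cultures received that hairpin with 2 or 5 point mutations. All 4 groups were therefore transduced, and no untreated culture is among the samples. The strain, the target of the hairpin and the promoter that drives it are not given in the sources used here.

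Whether the 4 libraries of each group represent different cultures or animals is not given in the labels, so the p-values measure the spread between these libraries, which may be technical. Library totals ranged from 2.76 to 11.14 M counts with Empty_Vector and from 5.30 to 8.06 M with shRNA. They were lower with shRNA_2bp, at 1.18 to 2.10 M, and with shRNA_5bp, at 0.832 to 2.50 M. All 6 of 6 neuronal miRNAs of a marker list had counts in every group, and their summed unscaled level was 456000 to 472800 counts per 1 M counts (CPM) with Empty_Vector, 404600 to 421800 with shRNA, 349200 to 361000 with shRNA_2bp and 343300 to 374400 with shRNA_5bp. MiR-128-3p, the most abundant neuronal miRNA, held 38.72% of the counts with Empty_Vector and 24.73% with shRNA_2bp. It made up most of the neuronal sum, and the other markers of that list did not all follow it. In the scaled fit, the log2 change with shRNA_2bp was −0.83 for miR-128-3p, −0.63 for miR-138-5p and −0.20 for miR-218-5p. It was 0.42 for miR-9-5p, 0.33 for miR-124-3p and 0.20 for miR-137-3p, the last not past the threshold.

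MiR-132 and miR-212 are cut from a shared primary transcript, which neurons make in response to activity and neurotrophins through the transcription factor CREB. Drosha releases each hairpin in the nucleus and Dicer removes its loop, which leaves a 5p and a 3p arm, and an Argonaute protein keeps one of them as a guide that finds messenger RNAs mainly through bases 2 to 8, the seed. MiR-132 is known in neurons for promoting the growth of dendrites.

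The mature sequences are shown because the 4 arms differ in which targets they can find and in how nearly alike they are for counting. They are written 5′ to 3′ from RefSeq on GRCm38.p6, with the seed in capitals.
miR-132-3p: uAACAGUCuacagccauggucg
miR-212-3p: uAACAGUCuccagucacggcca
miR-132-5p: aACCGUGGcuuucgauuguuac
miR-212-5p: aCCUUGGCucuagacugcuuacu
The 3p arms share the seed AACAGUC with each other and with no other mouse name in the RefSeq table. The seed of neither 5p arm, ACCGUGG or CCUUGGC, occurs in any other name there. The 3p arms are both 22 bases long and are identical over their leading 9 bases and at 17 positions in all. Counted from 1 at the 5′ end of miR-132-3p, the differences from miR-132-3p to miR-212-3p are A10C, C14U, U17C, U20C and G22A. Their reads can therefore be told apart from base 10 on, and no library had the same count for both.

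Both hairpins lie on the plus strand of chromosome 11 and are shown with the mature arms in capitals, to show where the arms lie in each. The miR-212 hairpin comes before the miR-132 hairpin, with 203 bases between them. GENCODE M21 places both in intron 1, at chr11:75172598-75173977, of the 3-exon non-coding gene 1700016P03Rik, which spans chr11:75172560-75177633.
Mir212, chr11:75173388-75173478: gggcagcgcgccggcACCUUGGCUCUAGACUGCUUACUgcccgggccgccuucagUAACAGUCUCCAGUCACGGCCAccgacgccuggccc
Mir132, chr11:75173682-75173747: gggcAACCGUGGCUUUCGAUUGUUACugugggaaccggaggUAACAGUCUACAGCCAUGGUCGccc
The miR-212 hairpin has 91 bases, a GC content of 69.2% and a predicted folding energy of −41.5 kcal/mol in RNAfold. The miR-132 hairpin has 66 bases, a GC content of 57.6% and a predicted folding energy of −37.2 kcal/mol. GC content of the mature arms is closer, at 50% for miR-132-3p, 45.5% for miR-132-5p, 54.5% for miR-212-3p and 47.8% for miR-212-5p.

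MiR-132-3p, the arm that carries the established targets of miR-132, rose with every hairpin. Its level, in CPM after TMM scaling (trimmed mean of M values), was 986.6, 813.6, 902.9 and 840.9 in Empty_Vector replicates 1 to 4 (mean 886 ± 76.8, SD, n = 4). With shRNA it was 1742, 1794, 1706 and 1620 CPM (1716 ± 73.1), and with shRNA_2bp it was 1198, 1316, 1225 and 1103 CPM (1210 ± 87.8). With shRNA_5bp it was 1912, 2020, 1678 and 1839 CPM (1862 ± 144). The order of the groups was Empty_Vector, shRNA_2bp, shRNA and shRNA_5bp, and neighbours in that order did not overlap except shRNA and shRNA_5bp. The counts behind these levels were 1348 to 13596 per library.

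MiR-132-5p, cut from the other side of the same hairpin, was raised with shRNA and shRNA_5bp but not with shRNA_2bp. Its level was 758.8, 847.8, 846.3 and 824 CPM with Empty_Vector (819 ± 41.7, SD, n = 4) and 660.4, 807.4, 733.7 and 744.6 CPM with shRNA_2bp (737 ± 60.3). It was 1190, 1247, 1263 and 1167 CPM with shRNA (1217 ± 45.5) and 1305, 1274, 1191 and 1125 CPM with shRNA_5bp (1224 ± 81.4). The groups thus formed a lower and a higher pair. Libraries overlapped within each pair and not between the pairs.

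MiR-212-3p, which shares the seed of miR-132-3p, was the scarcest of the 4 arms. Its level was 46.65, 31.83, 42.67 and 38.84 CPM with Empty_Vector (40.0 ± 6.31, SD, n = 4) and 28.74, 24.88, 24.13 and 16.36 CPM with shRNA_2bp (23.5 ± 5.18). It was 73.05, 79.44, 71.31 and 75.49 CPM with shRNA (74.8 ± 3.53) and 105.6, 103.6, 89.75 and 94.84 CPM with shRNA_5bp (98.5 ± 7.45). The order was shRNA_2bp, Empty_Vector, shRNA and shRNA_5bp, with no overlap between neighbours. Counts were low in the shallow groups, at 20 to 55 per library with shRNA_2bp and 78 to 279 with shRNA_5bp, against 107 to 402 with Empty_Vector and 407 to 570 with shRNA.

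MiR-212-5p was the more frequently counted arm of its hairpin and was lowest with shRNA_2bp. Its level was 738.2, 712, 715.5 and 609.6 CPM with Empty_Vector (694 ± 57.4, SD, n = 4) and 802.1, 841.9, 808.9 and 715.7 CPM with shRNA (792 ± 53.8). It was 562.6, 674.9, 593.7 and 561.8 CPM with shRNA_5bp (598 ± 53.2) and 250.3, 296.3, 277.5 and 252 CPM with shRNA_2bp (269 ± 22.0). The shRNA_2bp libraries lay below all others. Empty_Vector overlapped both shRNA and shRNA_5bp, while shRNA and shRNA_5bp did not overlap.

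**Figure D1:**
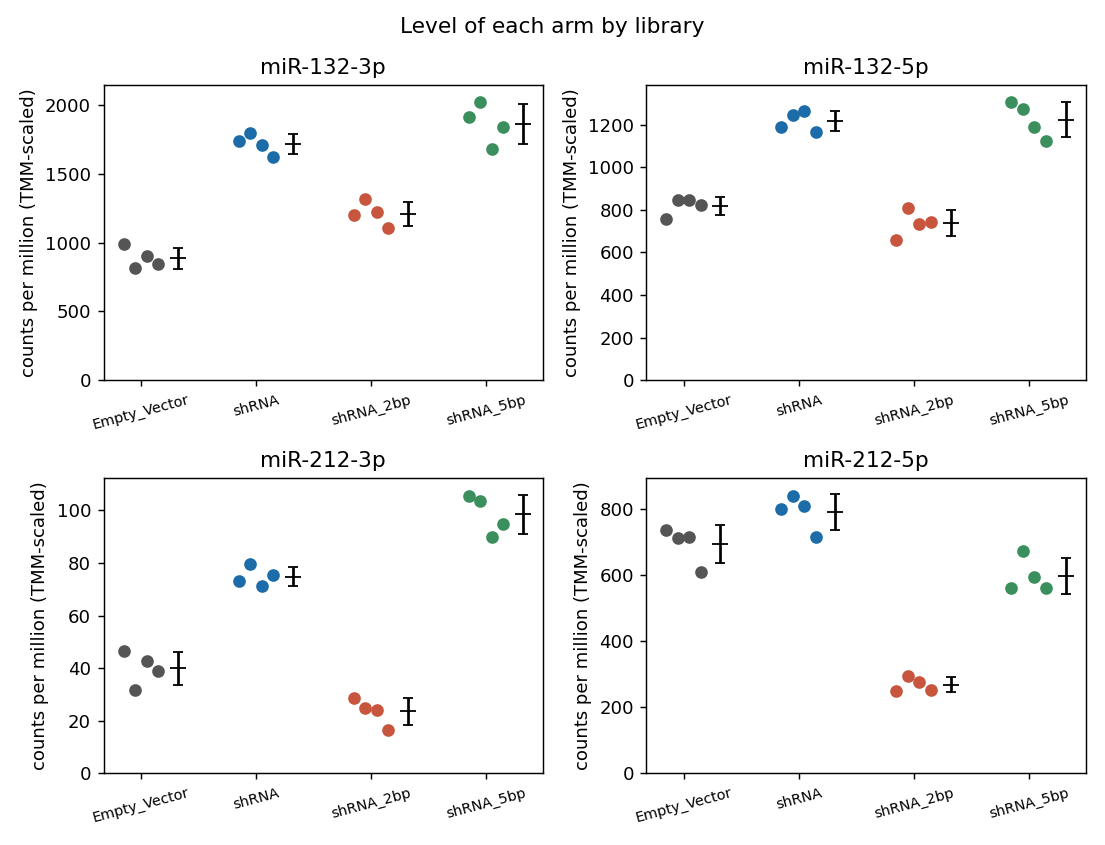
Level of each arm in each of the 16 libraries, in CPM after TMM scaling, with group on the horizontal axis and the mean ± SD of 4 libraries beside each group. MiR-132-3p lies at 1103 CPM or above in every hairpin library and at 986.6 CPM or below in every Empty_Vector library, and both miR-212 arms are lowest with shRNA_2bp.

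The first comparison was of the unmutated hairpin with the empty vector. All 4 arms rose with shRNA, where 19.7% of the 483 tested miRNAs rose and the median log2 change of all tested was 0.04. The rises of miR-132-3p (log2 change 0.95 ± 0.067, SE; 95% interval 0.82 to 1.09; adjusted p = 3.59e-12, edgeR) and miR-212-3p (0.92 ± 0.12; 0.67 to 1.17; adjusted p = 6.51e-07) were alike in size, at 1.94-fold and 1.89-fold. MiR-132-5p rose 1.49-fold (0.57 ± 0.063; 0.44 to 0.70; adjusted p = 2.77e-08). For these 3 arms every shRNA library lay above every Empty_Vector library. The groups were apart in this way, upward or downward, for 32.9% of all tested miRNAs. MiR-212-5p rose 1.14-fold (0.19 ± 0.074; 0.04 to 0.34; adjusted p = 0.0441) and its groups overlapped. That last call was lost without Empty_Vector replicate 4 (0.10, adjusted p = 0.371), shRNA_2bp replicate 3 (0.15, 0.123), shRNA_2bp replicate 4 (0.15, 0.125) or shRNA_5bp replicate 2 (0.15, 0.095), and under 4 of the other settings tried. A change in the share of cells that make these miRNAs and a change in the amount per cell cannot be told apart in such bulk libraries.

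With the 2-mutation hairpin the hairpins of the locus moved apart. MiR-132-3p rose 1.37-fold over Empty_Vector (0.45 ± 0.068; 0.31 to 0.59; adjusted p = 1.26e-06, edgeR), with every library above. Both miR-212 arms fell, with every library below: miR-212-5p was 2.57-fold lower (−1.36 ± 0.079; −1.52 to −1.20; adjusted p = 5.24e-15) and miR-212-3p was 1.65-fold lower (−0.72 ± 0.15; −1.04 to −0.41; adjusted p = 0.000179). MiR-132-5p passed the threshold downward by a small margin (−0.15 ± 0.065; −0.28 to −0.02; adjusted p = 0.0396), but with the library totals as the only scaling its change was 0.03 (adjusted p = 0.71), and with no filter on low counts it was −0.26 (adjusted p = 0.00295). The members thus gave 1 rise, beside 33.3% of tested miRNAs that rose, and 3 falls, beside 32.3% that fell, around a median of 0.01. Of all tested miRNAs, 59.2% had groups that did not overlap in this comparison.

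The call on miR-132-5p with shRNA_2bp lay near the threshold, and leaving out any of 10 of the 16 libraries ended it. The shRNA and shRNA_5bp libraries are not part of this comparison and act on it only through the filter, scaling and spread that all libraries share. The value was −0.11 without Empty_Vector replicate 2, −0.09 without Empty_Vector replicate 3 and −0.09 without shRNA_2bp replicate 1. It was −0.12, −0.11, −0.12 and −0.14 without shRNA replicates 1 to 4. Without shRNA_5bp replicates 1, 3 and 4 it was −0.14, −0.14 and −0.11. These losses had adjusted p-values of 0.0534 to 0.239 in edgeR, with a negative value in each.

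With the 5-mutation hairpin both 3p arms and miR-132-5p rose over Empty_Vector, with every library above. MiR-212-3p rose 2.50-fold (1.32 ± 0.13; 1.05 to 1.59; adjusted p = 9.41e-10, edgeR) and miR-132-3p rose 2.11-fold (1.07 ± 0.068; 0.93 to 1.21; adjusted p = 1.05e-13). MiR-132-5p rose 1.49-fold (0.58 ± 0.064; 0.45 to 0.71; adjusted p = 7.07e-09). MiR-212-5p was 1.16-fold lower (−0.21 ± 0.076; −0.36 to −0.05; adjusted p = 0.0199) with overlapping groups, and with library totals as the only scaling its change was 0.04 (adjusted p = 0.711). With no filter on low counts its change was −0.44 and that of miR-132-5p was 0.34. Without Empty_Vector replicate 1 the change of miR-212-5p was −0.18 (adjusted p = 0.0543), and without shRNA_5bp replicate 1 it was −0.17 (adjusted p = 0.0825). The 3 rises stand beside 31.5% of tested miRNAs that rose, and the 1 fall beside 26.7% that fell, with a median of 0.06. Groups did not overlap here for 50.3% of all tested miRNAs.

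**Figure D2:**
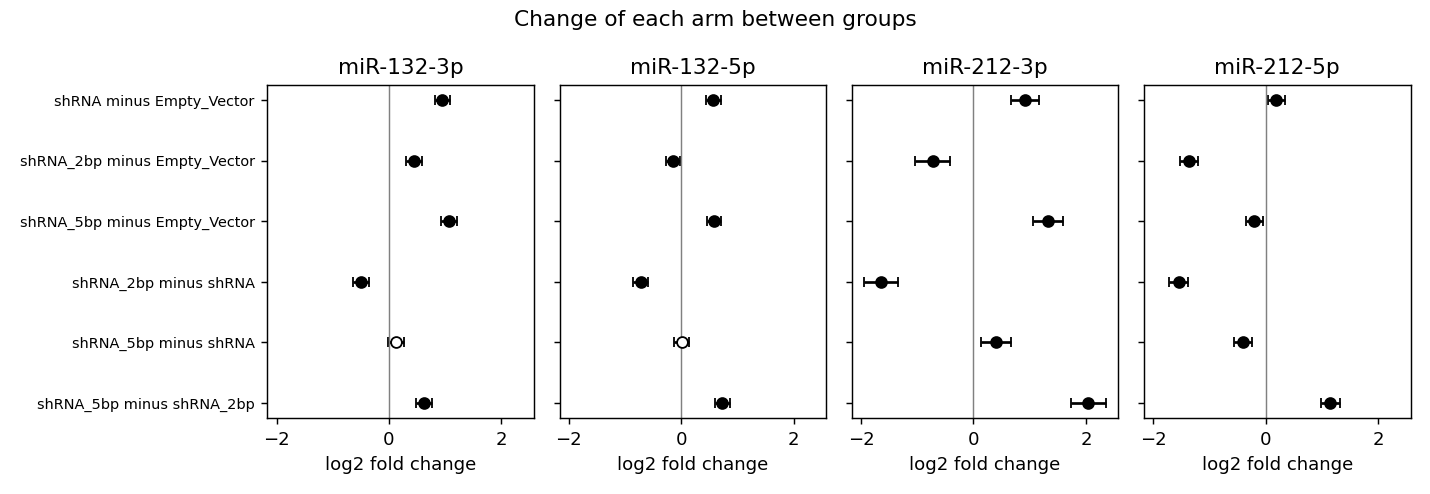
Log2 fold change of each arm in each of the 6 pairs of groups, with 95% intervals. Filled points passed an adjusted p of 0.05 and open points did not. The intervals of miR-212-3p and miR-212-5p lie below 0 for shRNA_2bp minus Empty_Vector, while that of miR-132-3p lies above 0. The signs of miR-132-5p in that comparison and of miR-212-5p in shRNA_5bp minus Empty_Vector turn when library totals are the only scaling.

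The hairpins were also compared with each other. These comparisons share libraries with those above, so each gives its own values only. All 4 arms were lower with shRNA_2bp than with shRNA and did not overlap it. In this comparison 33.5% of tested miRNAs were lower, the median was −0.01 and 58.4% had groups that did not overlap, in either direction. The miR-212 arms were 3.12-fold lower for 3p (−1.64 ± 0.15; adjusted p = 8.54e-11, edgeR) and 2.94-fold lower for 5p (−1.55 ± 0.079; adjusted p = 2.08e-16). The miR-132 arms were 1.42-fold lower for 3p (−0.50 ± 0.068; adjusted p = 2.02e-07) and 1.65-fold lower for 5p (−0.72 ± 0.065; adjusted p = 6.92e-11).

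All 4 arms were higher with shRNA_5bp than with shRNA_2bp, again without overlap. In this comparison 36.9% of tested miRNAs were higher, the median was 0.16 and 53% had groups that did not overlap. MiR-212-3p differed 4.13-fold (2.04 ± 0.16; 1.73 to 2.36; adjusted p = 2.85e-12, edgeR), the widest gap of the 4 arms in any of the 6 comparisons. MiR-212-5p differed 2.23-fold (1.15 ± 0.081; adjusted p = 6.13e-13), miR-132-5p 1.66-fold (0.73 ± 0.066; adjusted p = 1.06e-10) and miR-132-3p 1.54-fold (0.62 ± 0.068; adjusted p = 6.06e-09).

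Between shRNA_5bp and shRNA the arms of miR-212 went opposite ways and those of miR-132 did not pass the test. The groups were apart for both arms of miR-212, as for 48.7% of all tested miRNAs. MiR-212-3p was 1.32-fold higher with shRNA_5bp (0.40 ± 0.13; 0.14 to 0.66; adjusted p = 0.0083, edgeR), beside 28.4% of tested miRNAs that were higher. MiR-212-5p was 1.32-fold lower (−0.40 ± 0.076; −0.56 to −0.25; adjusted p = 5.47e-05), beside 24.6% that were lower. The change of miR-132-3p was 0.12 ± 0.067 (−0.02 to 0.26; adjusted p = 0.134) and that of miR-132-5p was 0.01 ± 0.064 (−0.12 to 0.14; adjusted p = 0.943), so differences inside those intervals are not resolved. The change of miR-132-3p was 0.17 (adjusted p = 0.0429) without shRNA_5bp replicate 3 and 0.22 (adjusted p = 0.0103) with library totals as the only scaling. It was −0.03 without Empty_Vector replicates 2 or 3 or shRNA replicate 3, and −0.02 without shRNA replicates 1 or 2 or shRNA_5bp replicate 4. With no filter on low counts it was −0.09, while miR-132-5p fell by 0.20 (adjusted p = 0.0344) and miR-212-3p was not past the threshold (0.19, adjusted p = 0.37). The call on miR-212-3p was lost without Empty_Vector replicates 2 (0.25, adjusted p = 0.0794) or 3 (0.25, 0.0982), without shRNA replicates 1 (0.24, 0.154), 2 (0.27, 0.108) or 3 (0.23, 0.181) and without shRNA_5bp replicate 4 (0.27, 0.117). When any of these libraries was left out, the median of all tested miRNAs in this comparison moved from 0 to −0.15 or −0.16.

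Ratios of counts within a library do not depend on how libraries are scaled, and they compare the products of the locus directly. A ratio of 2 arms is no molar ratio, because adapters join some RNA ends better than others, so only its differences between groups were tested. With 4 libraries against 4, the exact two-sided permutation test cannot give a p below 0.0286, and p-values were adjusted over 24 tests, of which 20 passed. Each ratio that passed had p = 0.0286 and an adjusted p of 0.0343 by that exact test, with no overlap between the groups. Passing is thus the same as no overlap here, and the 24 tests reuse the same 16 libraries. Of all tested miRNAs taken singly, 32.9 to 59.2% had groups apart, depending on the comparison. The share among ratios of other arms was not counted.

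The ratio of miR-132-3p to miR-212-3p, the arms with a common seed, was near 22.3 with Empty_Vector and with shRNA and rose with shRNA_2bp. It was 21.1, 25.5, 21.1 and 21.6 in the Empty_Vector libraries (geometric mean 22.3) and 23.8, 22.5, 23.9 and 21.4 in the shRNA libraries (22.9). It was 41.3, 52.4, 50 and 65.8 with shRNA_2bp (51.7) and 18, 19.5, 18.6 and 19.3 with shRNA_5bp (18.8). The difference between shRNA and Empty_Vector was 0.04 ± 0.076 on the log2 scale (SE, exact permutation p = 0.657). The ratio rose 2.32-fold from Empty_Vector to shRNA_2bp (log2 difference 1.21 ± 0.15) and fell with shRNA_5bp (−0.24 ± 0.071), both past the test. Between shRNA_5bp and shRNA_2bp the log2 difference was −1.46 ± 0.14.

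The ratio of miR-132-5p to miR-212-5p rose with every hairpin. It was 1.03, 1.19, 1.18 and 1.35 with Empty_Vector (geometric mean 1.18) and 1.48, 1.48, 1.56 and 1.63 with shRNA (1.54). It was 2.64, 2.72, 2.64 and 2.95 with shRNA_2bp (2.74) and 2.32, 1.89, 2 and 2 with shRNA_5bp (2.05). Relative to Empty_Vector the log2 ratio was higher by 0.38 ± 0.087 (shRNA), 1.21 ± 0.089 (shRNA_2bp) and 0.79 ± 0.10 (shRNA_5bp), each past the test. All 4 groups were apart from each other in this ratio. With shRNA_2bp the balance between the hairpins thus moved toward miR-132 by 1.21 on the log2 scale in both the 3p and the 5p arms, whereas with shRNA_5bp it moved toward miR-132 in the 5p arms and toward miR-212 in the 3p arms.

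The balance of arms within each hairpin moved toward 3p with every hairpin virus. MiR-132-3p over miR-132-5p was 1.08 with Empty_Vector (0.96 to 1.30 over the 4 libraries), 1.41 with shRNA (1.35 to 1.46), 1.64 with shRNA_2bp (1.48 to 1.81) and 1.52 with shRNA_5bp (1.41 to 1.63). The log2 differences from Empty_Vector were 0.38 ± 0.098, 0.61 ± 0.11 and 0.49 ± 0.11 in that order of viruses, all past the test. The difference between shRNA_5bp and shRNA was 0.11 ± 0.056 (exact permutation p = 0.114) and that between shRNA_5bp and shRNA_2bp was −0.11 ± 0.078 (exact permutation p = 0.171).

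In the miR-212 hairpin the 5p arm outnumbered the 3p arm in every library. Its excess was 17.4-fold with Empty_Vector (15.7 to 22.3), 10.6-fold with shRNA (9.47 to 11.3), 11.5-fold with shRNA_2bp (8.63 to 15.0) and 6.05-fold with shRNA_5bp (5.31 to 6.58). The log2 ratio of 3p to 5p was higher than with Empty_Vector by 0.72 ± 0.13 with shRNA, 0.60 ± 0.20 with shRNA_2bp and 1.53 ± 0.14 with shRNA_5bp, each past the test. It differed by −0.12 ± 0.17 between shRNA_2bp and shRNA (exact permutation p = 0.514), and with 5 added to each count in place of 0.5 that difference was 0.03.

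**Figure D3:**
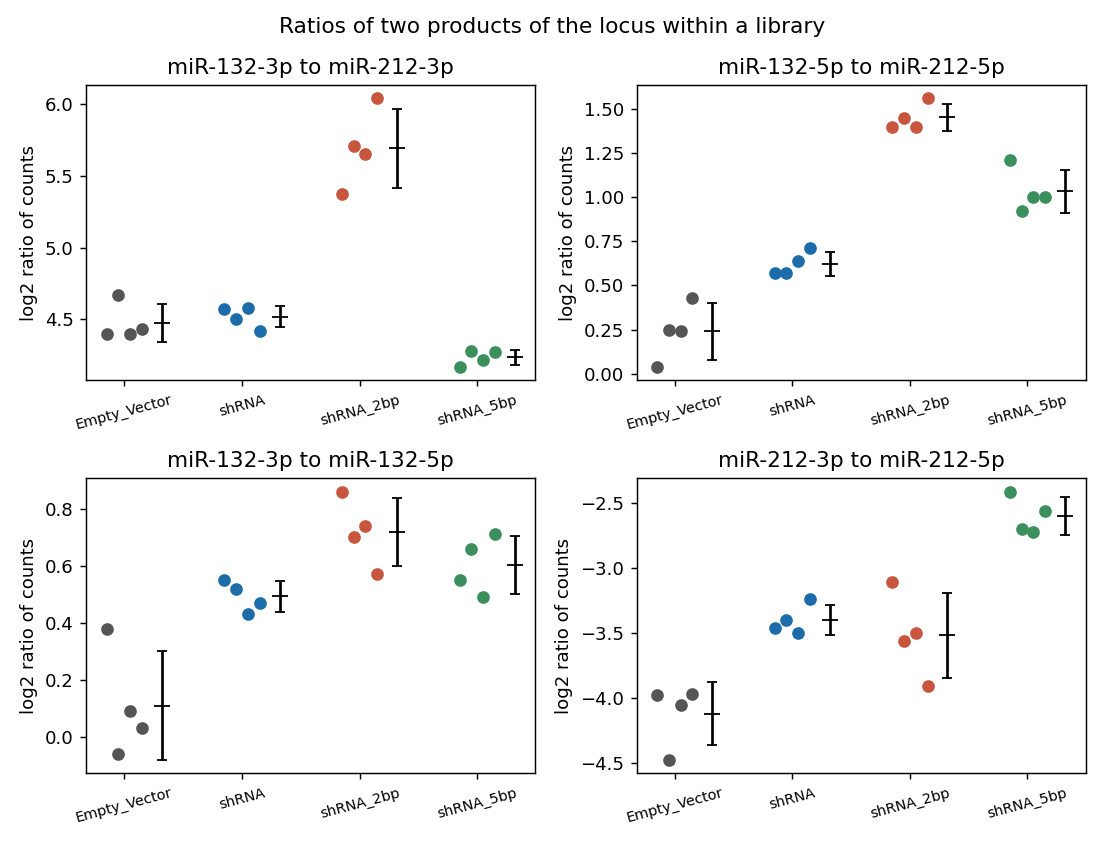
Log2 ratio of the counts of a pair of arms within each of the 16 libraries, by group, with the mean ± SD of 4 libraries and 0.5 added to each count. The 3p ratio of the hairpins stands apart upward with shRNA_2bp, at 41.3 to 65.8 on the linear scale, and the 3p to 5p ratio of miR-212 is highest with shRNA_5bp.

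The 4 arms together held 0.221% ± 0.0086 (SD, n = 4) of all counts with Empty_Vector, 0.380% ± 0.0099 with shRNA, 0.230% ± 0.019 with shRNA_2bp and 0.406% ± 0.028 with shRNA_5bp. The locus total with shRNA_2bp thus lay near that with Empty_Vector, and their ranges met, at 0.218 to 0.258% against 0.213 to 0.229%. With miR-128-3p left out of the totals the shares were 0.361%, 0.568%, 0.306% and 0.548%, so the order of Empty_Vector and shRNA_2bp, and that of shRNA and shRNA_5bp, turned with that denominator. What the total was made of differed between the groups. MiR-132-3p was 36.3% ± 2.12 of the locus counts with Empty_Vector, 45.2% ± 0.602 with shRNA, 54.1% ± 1.61 with shRNA_2bp and 49.2% ± 1.48 with shRNA_5bp. MiR-212-5p was 28.4% ± 1.45, 20.8% ± 0.564, 12% ± 0.247 and 15.8% ± 1.04 in the same order. MiR-132-5p averaged between 32% and 33.7% in all groups. MiR-212-3p was 1.64% ± 0.221, 1.97% ± 0.111, 1.05% ± 0.234 and 2.60% ± 0.0873. Of the 4 arms, then, the means of miR-132-3p and miR-212-5p moved furthest in opposite directions.

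**Figure D4:**
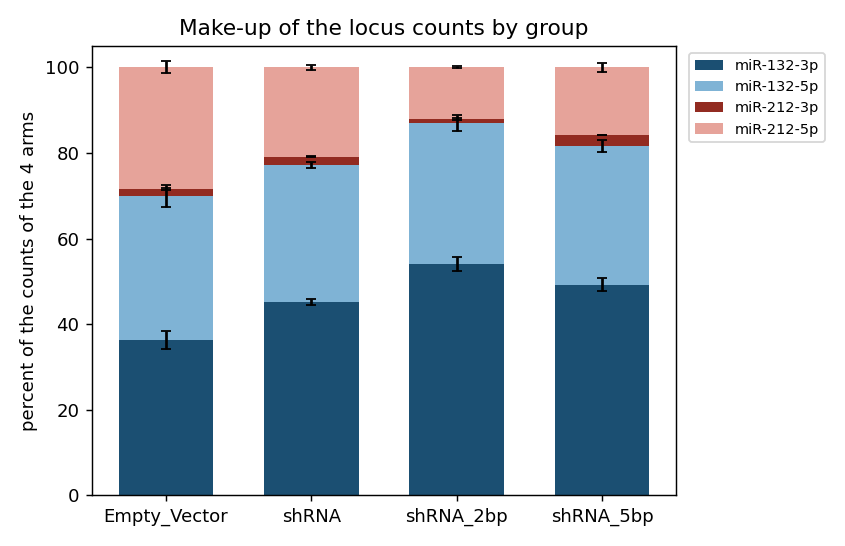
Share of each arm in the summed counts of the 4 arms, in percent, as stacked bars of group means with the SD of 4 libraries at each boundary. MiR-132-3p grows from 36.3% with Empty_Vector to 54.1% with shRNA_2bp, and miR-212-5p shrinks from 28.4% to 12%.

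The shifts of the locus were set beside those of other hairpins, as a description. Among 91 hairpins with a single locus and both arms tested, the median absolute change of the log2 3p to 5p ratio from Empty_Vector was 0.25, 0.39 and 0.47 (shRNA, shRNA_2bp and shRNA_5bp). The change was toward 3p in 40, 49 and 48 of the 91 hairpins in that order. In the fitted changes of the arms, miR-212 moved by 0.73 with shRNA and 1.53 with shRNA_5bp, where 6 of the 91 hairpins, itself included, moved at least as far in each. With shRNA_2bp it moved by 0.64, and 26 hairpins moved at least as far. MiR-132 moved by 0.38, 0.61 and 0.50, with 32, 27 and 43 hairpins at least as far, so its arm shift was common among the 91.

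Among 21 pairs of neighbouring hairpins, on the same strand with starts within 1000 bases, the median absolute difference between the log2 changes of their 3p arms with shRNA_2bp was 0.60. MiR-132 and miR-212 differed by 1.18 there, and 5 of the 21 pairs, including this pair, differed at least as much. For the 5p arms the difference was 1.21 against a median of 0.73, with 4 pairs at least as far apart. With shRNA the pair differed by 0.03 in its 3p arms, and 16 of the 21 pairs differed at least as much. In the 5p arms with shRNA the pair differed by 0.38 against a median of 0.25, with 10 of the 21 pairs at least as far apart. With shRNA_5bp it differed by −0.25 in the 3p arms against a median of 0.48, with 17 of the 21 pairs at least as far apart. Its 5p arms differed by 0.79 there against a median of 0.63, with 9 of the 21 pairs at least as far apart.

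Median changes differed with GC content in the groups with mutated hairpins, and the members differ in GC content too. Over 427 tested miRNAs with a RefSeq sequence, the median log2 change with shRNA_2bp was −0.24 above a GC content of 50% and 0.18 at or below it, and with shRNA_5bp it was −0.21 and 0.20. The members, from the highest GC content to the lowest, are miR-212-3p, miR-132-3p, miR-212-5p and miR-132-5p, and their log2 changes were −0.72, 0.45, −1.36 and −0.15 with shRNA_2bp and 1.32, 1.07, −0.21 and 0.58 with shRNA_5bp. The part of GC content in these changes was not tested.

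Markers of other cells also differed between the groups. Astroglia-leaning miRNAs (4 of 4 with counts) summed to 1678 to 1861 CPM with Empty_Vector, 2048 to 2379 with shRNA, 3681 to 3984 with shRNA_2bp and 2252 to 2505 with shRNA_5bp. Vessel and fibroblast miRNAs summed to 637.7 to 744.8, 642.9 to 784.5, 1186 to 1396 and 1246 to 1393 CPM in that order, with counts for 5 of 5 in each group except Empty_Vector, where miR-145a-5p was at 0. Leukocyte and microglial miRNAs summed to 1.839 to 4.087 CPM with Empty_Vector, 13.13 to 18.82 with shRNA, 2.132 to 7.323 with shRNA_2bp and 1.603 to 6.341 with shRNA_5bp, with the defining miR-223-3p and miR-142a-3p at 0 in all groups. With miR-142a-5p at 1.70 CPM at most, these shRNA sums were mostly miR-155-5p, which reached 18.3 CPM. MiR-126a-3p (598.7 to 1226 CPM over the libraries) made up most of the vessel and fibroblast sums. The astroglial sums were mostly miR-21a-5p (611 to 2064 CPM) and miR-22-3p (970 to 1879 CPM). Such sums therefore follow few miRNAs. The 2 oligodendrocyte miRNAs summed to 14.44 CPM at most and the 2 erythroid ones to 2.549 CPM at most, with miR-144-3p at 0. The 3 muscle miRNAs summed to 39.54 to 58.68, 9.179 to 16.91, 37.83 to 49.1 and 21.14 to 27.65 CPM in the same order of groups. The highest astroglial sums and the lowest levels of both miR-212 arms were in the same group, shRNA_2bp, and the part of other cells in the members' changes was not tested. Depth was lower in both mutated groups, and its part was not tested either.

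Other miRNAs linked to synapses and activity were read from a list of 20 names, of which 19 were tested. With shRNA, 6 rose, 5 fell and 8 did not pass the test, with a median log2 change of 0.03, beside 19.7% of all tested miRNAs that rose and 15.1% that fell. MiR-181a-5p increased from 7292 to 12240 CPM (0.75 ± 0.065; adjusted p = 2.84e-10, edgeR). MiR-485-5p, a regulator of presynaptic SV2A, went down from 640.4 to 407.3 CPM (−0.65 ± 0.093; adjusted p = 4.24e-06). MiR-184-3p was lower with shRNA, at 9.04 CPM against 17.77 (−0.97 ± 0.19; adjusted p = 0.00019). MiR-29b-3p, a miRNA of neuronal maturation, passed upward at low counts (1.15 ± 0.38; adjusted p = 0.0293) and did not pass without Empty_Vector replicates 2 (1.25), 3 (1.15) or 4 (0.96), shRNA replicate 4 (0.64) or shRNA_2bp replicate 4 (1.10).

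With shRNA_2bp, 7 of the 19 rose, 8 fell and 4 did not pass, with a median of −0.20, beside 33.3% of all tested miRNAs that rose and 32.3% that fell. MiR-181a-5p rose again (1.08 ± 0.066; adjusted p = 1.66e-14, edgeR), to 15380 CPM. MiR-34a-5p, a target of p53, was higher, at 17.54 against 8.08 CPM (1.08 ± 0.21; adjusted p = 5.61e-05). MiR-329-3p, of the activity-regulated miR-379 to miR-410 cluster, was lower, at 78.25 against 189.3 CPM (−1.26 ± 0.13; adjusted p = 7.04e-10). Other list members of that cluster did not all follow it. MiR-381-3p rose from 5364 to 10390 CPM (0.95 ± 0.053; adjusted p = 1.62e-15), and miR-485-5p fell (−0.85 ± 0.097; adjusted p = 2.66e-08). MiR-134-5p did not pass (−0.12 ± 0.070; adjusted p = 0.123). MiR-188-5p had 3.10 CPM against 6.30 and fell (−1.04 ± 0.31; adjusted p = 0.00405).

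With shRNA_5bp, 7 rose, 5 fell and 7 did not pass, with a median of 0.06, beside 31.5% of all tested miRNAs that rose and 26.7% that fell. MiR-184-3p fell to 6.39 CPM (−1.64 ± 0.27; adjusted p = 5.17e-06, edgeR), miR-128-3p fell (−0.81 ± 0.065; adjusted p = 1.42e-11) and miR-181a-5p rose (0.97 ± 0.066; adjusted p = 3.53e-13). MiR-188-5p rose to 10.76 CPM (0.82 ± 0.24; adjusted p = 0.00401), but its change was 0.60 (adjusted p = 0.0611) without shRNA_5bp replicate 4 and 0.57 (adjusted p = 0.177) with no filter on low counts, and 4 list members rose in each of these settings. With library totals as the only scaling, 10 list members rose with shRNA and 12 with shRNA_5bp.

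The miRNAs whose levels most resembled the 3p arms differed between the arms. The likeness was Pearson's r of log2 CPM over the 16 libraries among 356 other miRNAs of at least 10 CPM, given as a description, since the libraries fall into the same 4 groups for every miRNA. For miR-132-3p the closest were miR-129-2-3p (r = 0.929), miR-335-3p (0.878), miR-361-5p (0.861), miR-532-3p (0.835) and miR-296-5p (0.833). MiR-129-2-3p had 129.9 ± 13.3 CPM with Empty_Vector, 296.6 ± 31.3 with shRNA, 247.6 ± 46.8 with shRNA_2bp and 379.1 ± 38.7 with shRNA_5bp, in the same order as miR-132-3p. For miR-212-3p the closest were miR-532-5p (0.962), miR-221-3p (0.949), miR-7a-5p (0.947), miR-129-5p (0.934) and miR-652-3p (0.917). MiR-221-3p had 686 ± 86.1, 892.1 ± 29.6, 399.4 ± 32.1 and 948.9 ± 34.1 CPM in that order of groups, with its lowest level with shRNA_2bp as for miR-212-3p.

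Between the members, r was 0.743 for the 3p arms with the shared seed and 0.908 for miR-132-5p with miR-212-3p. It was 0.816 for the arms of miR-132, 0.72 for the arms of miR-212, 0.667 for the 5p arms and 0.207 for miR-132-3p with miR-212-5p. The pair with the lowest r was made of the 2 arms whose shares of the locus moved furthest in opposite directions. Both descriptions come from the same counts, so neither adds to the other.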

How the data were processed

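Raw counts per mature mouse miRNA, as the authors deposited them, were used for 16 libraries. Per the labels' protocols, 100 ng of total RNA went into each library, with 15 PCR cycles and gel size selection. The submitters' processing notes name bcl2fastq 2.20.0.422, Trim Galore 0.6.0, cutadapt 1.15, Bowtie 1.1.1, edgeR and GRCm38.p6 without giving the step each served. No molecular identifiers are described, so counting precision covers counting error only.

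Groups came from the labels. All 16 libraries were fitted together, 1 coefficient per group (12 residual degrees of freedom), by edgeR 4.0.16 (limma 3.58.1, R 4.3.3): TMM scaling, filterByExpr (483 tested; of 1495 left out, 611 had no count) and robust quasi-likelihood F tests. P-values were adjusted by Benjamini-Hochberg over the 483 miRNAs of a comparison, with a threshold of 0.05. Standard errors come from the log2 change and its F, and intervals are 95%. Ratios added 0.5 to each count. The fit was tried on simulated counts with changes placed in shRNA alone. It was read there only in shRNA minus Empty_Vector, so the mutated groups are not covered.

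Named miRNAs are the 4 members, up to 4 list members with the largest changes past the threshold in each comparison with Empty_Vector, and the 5 most alike to each 3p arm. Cell markers and further list members of the miR-379 to miR-410 cluster are named beside them. The members and lists were chosen with earlier results of these data known. Sequences are RefSeq's, matched by name for 1679 of 1978 names, and folding used ViennaRNA 2.7.2. Whether shared replicate numbers pair the libraries was checked over 360 miRNAs of at least 10 CPM. Same-numbered libraries deviated together for shRNA with Empty_Vector (r 0.111 to 0.282) and shRNA_2bp with shRNA (0.166 to 0.198), above 0.1 in every pair. In both, 8 of 8 libraries correlated best with the library of their own number in the other group. In the other 4 comparisons 2 to 6 of 8 did so, and not every pair was above 0.1. There r was 0.094 to 0.163 for shRNA_2bp with Empty_Vector, and the lowest r was negative in each comparison with shRNA_5bp. The main fit and the exact ratio tests treated the libraries as unpaired. The alternatives were other scalings, DESeq2 1.42.0, no filter, a fit of the 2 groups alone, a replicate block and leaving out each library.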

Additional observations from a re-analysis of the deposited data

Results flagged for a closer look

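In the ratio of miR-132-3p to miR-212-3p with Empty_Vector, replicate 2 stood apart from the other 3 libraries. Its log2 ratio was 4.674, a ratio of 25.5 against 21.1 to 21.6, and its gap to the nearest library was 0.864 of the range of the group, above Dixon's critical value at 95%. This was 1 of 32 sets of 4 libraries looked at, and such a test flags about 5% of sets by chance. Leaving out each library in turn, that one included, gave 1.10 to 1.32 for the log2 difference of this ratio between shRNA_2bp and Empty_Vector, against 1.21 with all.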

How the results depend on the processing

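Of the members' changes, 152 of 168 kept their direction and side of the threshold under the other settings and 346 of 384 when a library was left out, as did 47 of 48 ratios that were tested again. All 138 counts of called miRNAs stayed within 1.5 times their main value. With library totals alone the medians of all tested miRNAs against Empty_Vector were 0.18, 0.19 and 0.30 (shRNA, shRNA_2bp, shRNA_5bp). With no filter the medians of these same miRNAs were 0.01, −0.11 and −0.18. Over the larger set fitted without a filter they were 0.01, −0.18 and −0.28. With library totals alone miR-132-5p with shRNA_2bp was 0.03, miR-212-5p with shRNA_5bp 0.04 and miR-132-3p in shRNA_5bp minus shRNA 0.22 (adjusted p = 0.0103). MiR-212-5p with shRNA was 0.16 without miR-128-3p, 0.16 with DESeq2 size factors, 0.17 without a filter and 0.16 in DESeq2's Wald test, none past the threshold. MiR-132-5p with shRNA_2bp was −0.14 with DESeq2 size factors, −0.15 with the 2 groups alone and −0.14 in DESeq2, again not past it. In shRNA_5bp minus shRNA, miR-132-5p was 0 without miR-128-3p, −0.02 with DESeq2 size factors and in DESeq2, and −0.20 without a filter (adjusted p = 0.0344, past the threshold). There miR-132-3p was −0.09 and miR-212-3p 0.19 (adjusted p = 0.37, its call lost). The log2 3p to 5p ratio of miR-212 in shRNA_2bp minus shRNA was 0.03 with 5 added. Without miR-128-3p in the totals, locus shares were 0.361%, 0.568%, 0.306% and 0.548%. The cause of these changes was not tested.

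Leaving out each library gave 0.10 to 0.28 for miR-212-5p with shRNA, −0.23 to −0.09 for miR-132-5p with shRNA_2bp and −0.32 to −0.17 for miR-212-5p with shRNA_5bp. In shRNA_5bp minus shRNA it gave −0.03 to 0.17 for miR-132-3p, −0.15 to 0.02 for miR-132-5p and 0.23 to 0.44 for miR-212-3p. With a replicate block the change of miR-212-5p with shRNA was 0.19, and the block changed no call on a member. Depth limits miR-212-3p most, with 20 counts in shRNA_2bp replicate 4, its lowest count.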
